A study of Mus musculus with 2 samples.

Results

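Immature neutrophils with specific granules were examined among sorted periosteal cells of the mouse femur and tibia. A cell was a member when it held at least 5 unique molecular identifiers (UMIs, each standing for 1 captured transcript) of Ltf, at least 5 of at least 2 of Ngp, Camp, Ly6g and Lcn2, and fewer than 5 of Elane. It also had to pass the filters of at least 500 genes, at least 500 UMIs and at most 10% mitochondrial UMIs. In library 1, 619 of 6276 cells that passed the filters were members (9.86%, exact binomial 95% interval 9.14 to 10.6). In library 2, 69 of 2893 cells were members (2.39%, 1.86 to 3.01). Together 688 of 9169 cells belonged to the class. Both libraries came from wild-type C57BL6 mice, 4 weeks old, whose periosteal cells were dissociated with collagenase and sorted as negative for CD45, CD31 and Ter-119. They were 3' droplet libraries and are replicates of 1 condition. The labels do not give the number of mice in each, so the spread between them may be technical. The tables held 100808649 UMIs in 9932 barcodes of library 1 and 33306452 UMIs in 3659 barcodes of library 2. The libraries shared 8 barcodes, 7 of which passed the filters in both, and 0 of which was a member in either.

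Neutrophils are made in the bone marrow and fill their granules in a fixed order. Promyelocytes make the azurophil granules with myeloperoxidase and the serine proteases. Myelocytes and metamyelocytes then make the specific granules, whose best-known contents are lactoferrin, the cathelicidin peptide and lipocalin, and band cells and mature neutrophils add the gelatinase granules. The last divisions of the lineage take place while the specific granules are being made. CD45, the surface phosphatase that marks blood cells, is normally carried by these cells.

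The members were described against 3 other classes cut from the same libraries. Promyelocytes held at least 5 UMIs of each of Elane, Mpo and Prtn3 and fewer than 5 of Ltf, and numbered 140 in library 1 and 25 in library 2. Mature neutrophils held at least 5 UMIs of Retnlg with Ltf and Elane each below 5, and numbered 267 and 35. Other cells were all 5517 and 2799 cells that passed the filters and were neither members nor promyelocytes. They therefore include the mature neutrophils and the 48 and 6 cells with both Ltf and Elane at 5 or more. Because measured genes cut the classes, their differences are given as a description with no test. UMIs were summed per class and library and scaled to CPM, the UMIs of a gene per 1000000 UMIs of the class. Since 1 UMI stands for 1 transcript end, levels were not divided by transcript length. A gene was called higher or lower when it differed at least 2-fold the same way in both libraries, after 10 CPM were added to each level. Intervals cover counting error only.

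The amount of RNA differed between the classes. Members held a median of 9610 UMIs per cell in library 1 and 10173 in library 2. Promyelocytes held 43739 and 43190, and mature neutrophils 4287 and 3923. CPM therefore gives the composition of the captured RNA, not the amount per cell. The median log2 fold over all 6483 genes considered against promyelocytes was -0.37 in library 1 and -0.53 in library 2 by CPM, and -2.01 and -1.96 by UMIs per cell. Against mature neutrophils the medians over 5939 genes were -0.04 and -0.17 by CPM, and 0.82 and 0.71 per cell. By UMIs per cell 74.1% of all genes were lower than in promyelocytes and 1.96% higher, and against mature neutrophils 24.4% were higher and 1.4% lower. With the 20 most abundant member genes left out of the scaling, 20.7% of all genes were higher than in promyelocytes and 8.18% lower. Counts of listed genes by these scalings are to be read against these shares.

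**Figure D1:**
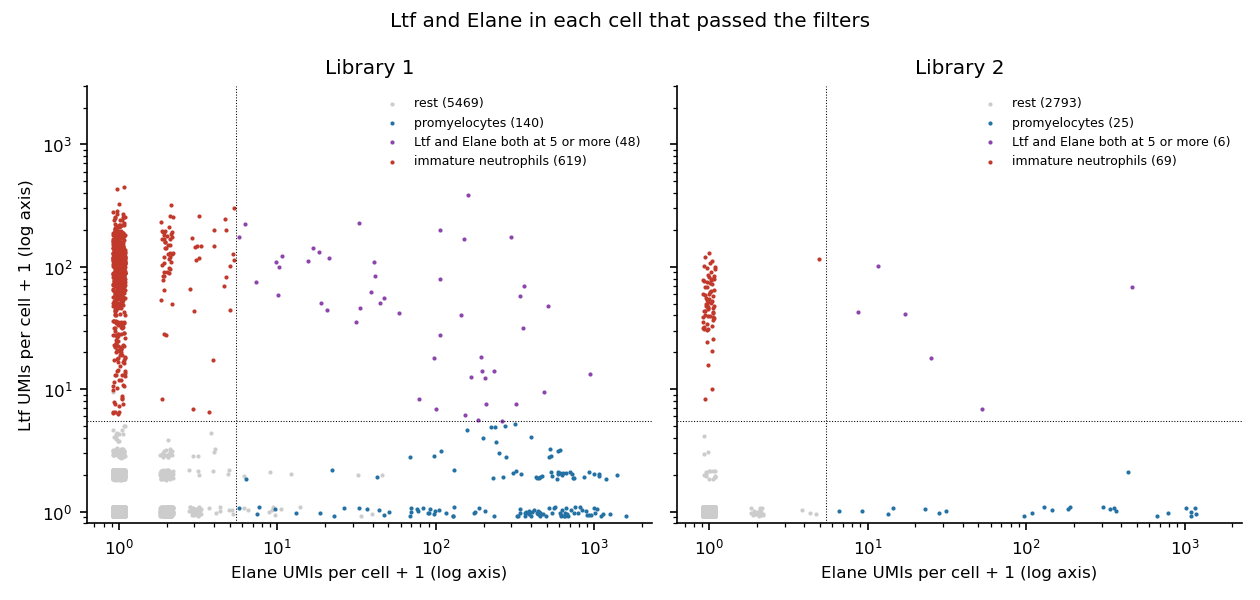
Ltf UMIs (vertical, log axis) and Elane UMIs (horizontal, log axis) in each cell that passed the filters, with 1 added and a small random shift, each library in its own panel. Dotted lines mark the limit of 5 UMIs; the 619 and 69 members lie at upper left, and the 48 and 6 cells with both genes at 5 or more lie at upper right.

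Ltf, which encodes lactoferrin, an iron-binding protein of the specific granule, ranged from 5 to 489 UMIs per member with a median of 96 in library 1. In library 2 it ranged from 8 to 139 with a median of 51. Few members lay near the limit: 16 in library 1 and 1 in library 2 held 5 to 9 Ltf UMIs. Just outside it, 25 and 1 cells held 3 or 4 Ltf UMIs, of which 21 and 1 also held enough of the other markers. All 4 of the other markers reached 5 UMIs in 327 members of library 1 and 35 of library 2, and exactly 3 did in 291 and 34. Elane was at 0 in 549 and 68 members. Prtn3, an azurophil protease that the rule did not use, reached 5 UMIs in 27 and 2 members, and Mpo in 2 and 0.

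The summed Ltf level in the members was 7780 CPM in library 1 (Poisson 95% interval 7720 to 7841) and 4175 in library 2 (4046 to 4308). It was 12.6 and 0.976 CPM in promyelocytes, the latter a single UMI, and 57.3 and 50.2 in mature neutrophils. Ngp, a cathelicidin-related granule protein, stood at 34807 and 61726 CPM in members against 1408 and 797 in promyelocytes. Camp, the cathelicidin precursor, stood at 44091 and 60236 CPM against 6177 and 3480. Camp was uneven among promyelocytes: the median cell held 4 Camp UMIs in library 1 and 0 in library 2. The upper quartile was 244 and 1 and the highest count 3163 and 2199, while the median member held 398 and 635. Lcn2, the lipocalin that binds bacterial siderophores, stood at 15679 and 20880 CPM against 348 and 86.9. Ly6g, the surface protein bound by the common neutrophil antibody, was lower than these, at 501 and 485 CPM in members against 2.58 and 0 in promyelocytes. Ltf was also detected in cells that should lack it. B-lineage cells, with at least 3 UMIs of Cd79a and Ltf and Elane each below 5, numbered 2675 in library 1 and 1291 in library 2. Ltf had a UMI in 7.40% of B-lineage cells of library 1 and 0.0775% of library 2, at median depths of 4047 and 4226 UMIs, against 100% of members, for which the rule required it. With every cell thinned to 1000 UMIs the Ltf shares were 1.37% and 0.00822% of B-lineage cells and 97.9% and 97.3% of members.

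Ltf, Ngp and Camp lie on chromosome 9 (GRCm38) within 1195 kb. Camp occupies 109847379 to 109849617 on the minus strand, Ngp 110419747 to 110423012 and Ltf 111019271 to 111042767, both on the plus strand. Of the 28 other protein-coding genes between them, 7 were expressed highly enough to be considered against promyelocytes. Among these 1 was higher and 1 lower, beside 7.42% and 21.9% of all genes. Their highest level in members was 126 CPM in library 1 and 122 in library 2. The neighbours lay far below the levels of the 3 granule genes. The bases just upstream of these 3 genes are shown because the genes define the members and lie near each other; that they stood higher in members was fixed by the rule. They are from RefSeq (GRCm38.p6), read 5′ to 3′ on the strand of the gene, and end before the first annotated transcript start. Capitals mark matches to TTNNGNAA or its reverse complement TTNCNNAA, the 8-letter pattern bound by C/EBP factors in its loose form.
Ltf promoter, chr9:111019042-111019270, plus strand: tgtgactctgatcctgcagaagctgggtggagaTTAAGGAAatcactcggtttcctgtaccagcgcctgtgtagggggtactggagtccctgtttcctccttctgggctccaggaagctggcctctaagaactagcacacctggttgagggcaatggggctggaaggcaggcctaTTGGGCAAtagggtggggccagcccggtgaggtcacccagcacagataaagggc
Ngp promoter, chr9:110419558-110419746, plus strand: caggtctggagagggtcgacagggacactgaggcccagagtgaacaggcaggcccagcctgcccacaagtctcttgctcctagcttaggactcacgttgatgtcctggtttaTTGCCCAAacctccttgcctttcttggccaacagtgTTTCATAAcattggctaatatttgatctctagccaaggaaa
Camp promoter, chr9:109849618-109849706, minus strand: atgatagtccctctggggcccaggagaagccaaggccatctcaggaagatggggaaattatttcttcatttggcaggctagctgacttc
The Ltf window of 229 bases held 2 matches and the Ngp window of 189 bases held 2. The Camp window of 89 bases held 0. Among 32851 promoter windows cut to the same lengths, 35.0%, 31.1% and 16.7% held a match, so a match is common at these lengths. No exon of any annotated gene lay in these windows.

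Specific granule genes were higher in members than in promyelocytes as a list. By the 2-fold rule 10 of 13 listed genes were higher and 0 lower, beside 7.42% of all 6483 genes higher and 21.9% lower. Of these, Ltf, Ngp, Camp and Lcn2 had chosen the members. Without them 6 of 9 genes were higher and 0 lower, and the median log2 fold was 3.12 in library 1 and 3.78 in library 2. Of the 9, 5 were higher by UMIs per cell, beside 1.96% of all genes. Chil3, a chitinase-like secreted protein, stood at 6315 and 5311 CPM in members and at 718 and 43.9 in promyelocytes. Cd177, a surface and granule membrane protein of neutrophils, stood at 954 and 422 CPM against 23.7 and 1.95. Mmp8, the neutrophil collagenase, stood at 736 and 403 CPM against 6.38 and 3.90. In each of these genes both libraries put members above promyelocytes. Pglyrp1, a peptidoglycan-binding protein, was higher by 4.12-fold and 7.86-fold. Olfm4, which marks a subset of neutrophils, stood at 122 and 127 CPM against 2.89 and 0, at least 43.5-fold higher in library 2 with 3 UMIs taken as the floor of the class. Itgb2l, an integrin-like gene of the neutrophil lineage, was higher by 13.5-fold and 31.9-fold. Hp, Cfp and Slpi were not called. Hp, haptoglobin, stood at 1155 and 1201 CPM in members and 738 and 437 in promyelocytes.

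**Figure D2:**
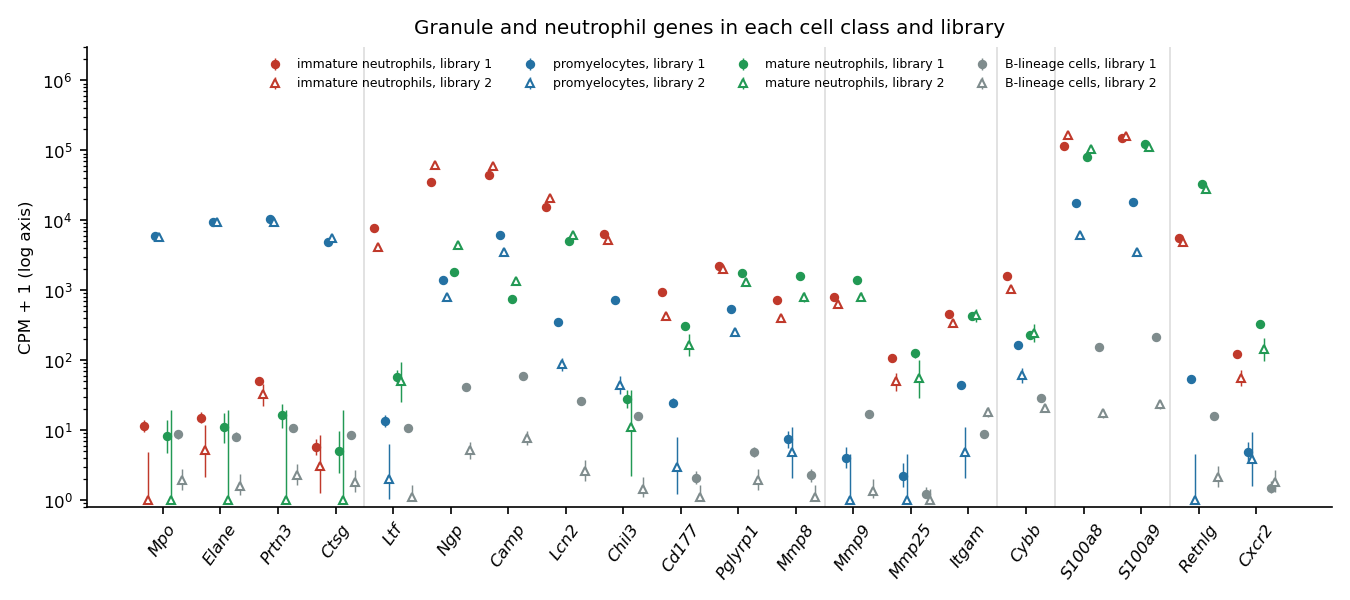
Level of 20 genes (CPM with 1 added, log axis) in members, promyelocytes, mature neutrophils and B-lineage cells, circles for library 1 and triangles for library 2, with Poisson 95% intervals for counting error. Azurophil genes are highest in promyelocytes, Ltf, Ngp, Camp and Chil3 in members, and Retnlg and Cxcr2 in mature neutrophils.

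Azurophil granule genes were lower in members than in promyelocytes in 7 of 8 cases, 3 of which had cut the promyelocyte class, beside 21.9% of all genes. Without Elane, Mpo and Prtn3, which the rules used, 4 of 5 were lower, with a median log2 fold of -3.10 in library 1 and -2.92 in library 2. Ctsg, cathepsin G, which neither rule used, stood at 4.80 and 2.12 CPM in members against 4837 and 5539 in promyelocytes. Prss57, another azurophil serine protease, stood at 16.7 and 19.1 CPM against 326 and 210. Srgn, the proteoglycan serglycin that packs granule proteins, stood at 304 and 374 CPM against 2682 and 2692. Srgn was also lower than in mature neutrophils, where it stood at 3322 and 5018 CPM, so that members held the least of the 3 classes in both libraries. Cd63, a granule membrane protein, was not called.

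Gelatinase granule genes were higher than in promyelocytes in all 5 listed genes that were considered, beside 7.42% of all genes, and in 4 by UMIs per cell, beside 1.96%. Slc11a1 was too low to be considered. Mmp9, the gelatinase itself, stood at 810 and 643 CPM in members against 3.04 and 0 in promyelocytes, at least 220-fold higher in library 2. Mmp25, a membrane-bound metalloprotease, stood at 108 and 48.8 CPM against 1.22 and 0. Itgam, the alpha chain of the Mac-1 integrin, stood at 460 and 342 CPM against 43.6 and 3.90. Lists of markers of other cell types were also summed. By CPM, the stromal, macrophage, B cell, erythroid and megakaryocyte lists stood higher in the mature class than in members in both libraries. Its stromal list summed to 3194 CPM in library 1 and 4291 in library 2, its macrophage list to 131 and 688, led by Cd68 in library 1 and by C1qa in library 2 at 161, its B cell list to 488 and 156 and its erythroid list to 43758 and 417. In members the stromal list summed to 655 and 48.8 CPM, the macrophage list to 24.5 and 20.2, the B cell list to 165 and 15.9 and the erythroid list to 15398 and 139. The megakaryocyte list summed to 5.33 and 45.2 CPM in mature neutrophils, from 8 and 9 UMIs, and to 2.21 and 0 in members. Those UMIs lay in 1.87% of 267 and 2.86% of 35 mature neutrophils, while 2.75% and 0% of members held a UMI of the list. The T and NK cell list went the other way by CPM, at 34.0 and 22.3 in members and 10.7 and 15.1 in mature neutrophils. In members of library 1 Gzma made up 23.9 of the 34.0 CPM, and 2 of 619 members held at least 5 UMIs of the list. The 1 gene of the list that was considered had log2 folds of -0.15 and 0.37 and was not called. Lower than in mature neutrophils were 5 of 7 macrophage, 4 of 4 B cell, 3 of 7 erythroid and 2 of 6 stromal markers. Of all genes 6.92% were lower. By UMIs per cell 1 macrophage marker and 0 of the others were lower, beside 1.4% of all genes. The part of these markers in the comparisons with mature neutrophils was not tested. Against mature neutrophils, 0 of 6 gelatinase granule genes were higher and 2 lower, beside 3.23% of all 5939 genes higher and 6.92% lower. Mmp9 stood at 1391 and 813 CPM in mature neutrophils, and Itgam at 433 and 437. The 2 lower genes were Adam8, a sheddase of the granule membrane, at 111 and 92.3 CPM in members against 347 and 487, and Slc11a1, a metal transporter, at 12.1 and 6.37 against 56.6 and 90.3. By UMIs per cell 0 of 6 were lower than in mature neutrophils.

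Part of the specific granule list was higher than in mature neutrophils. Of 13 genes 6 were higher, namely Ltf, Ngp, Camp, Lcn2, Chil3 and Cd177, and Slpi was lower, beside 3.23% and 6.92% of all genes. Without the first 4 of these, which chose the members, 2 of 9 were higher and 1 lower, beside the same shares. By UMIs per cell 6 of the 9 were higher and 0 lower, beside 24.4% and 1.4% of all genes. Camp stood at 738 and 1345 CPM in mature neutrophils and Chil3 at 27.3 and 10.0. Mmp8 went the other way in level, at 1585 and 798 CPM in mature neutrophils, and missed the rule. Slpi, a secreted inhibitor of serine proteases, stood at 458 and 452 CPM in members and 1959 and 1807 in mature neutrophils. Fcnb, a ficolin found in secretory granules, stood at 435 and 428 CPM in members and was at 0 UMIs in the mature class of both libraries, at least 218-fold and 28.4-fold higher in members. Orm1, an acute-phase glycoprotein, was also at 0 UMIs there and stood at 220 and 283 CPM in members. Fcnb did not separate members from promyelocytes, which held 569 and 140 CPM.

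**Figure D3:**
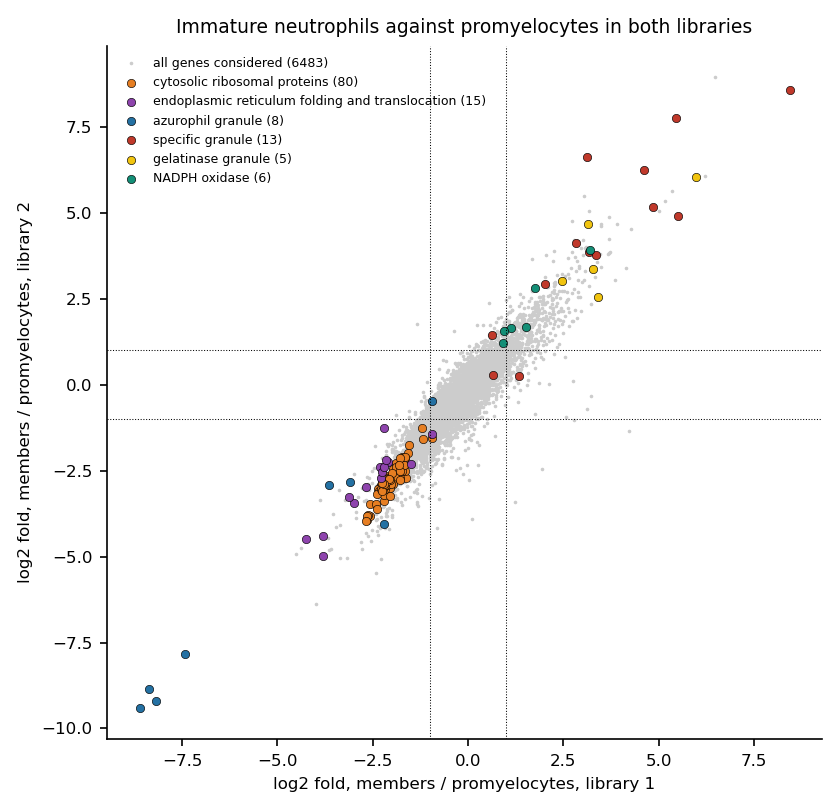
Log2 fold of members over promyelocytes in library 1 (horizontal) and library 2 (vertical), with 10 CPM added, for 6483 genes, with 6 gene lists in colour and dotted lines at 2-fold. Specific and gelatinase granule genes lie at upper right, azurophil genes at lower left, and ribosomal and endoplasmic reticulum genes below the line in both libraries.

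A few genes made up much of the captured RNA. S100a8, S100a9, Camp and Ngp together took 34.5% of member UMIs in library 1 and 44.6% in library 2. They took 4.32% and 1.40% of the summed UMIs in promyelocytes and 20.5% and 22.3% in mature neutrophils. The promyelocytes were uneven, with a median per cell of 0.845% in library 1 and 0.0101% in library 2 and a highest share of 30.5% and 27.6%; the median member was at 38.4% and 44.7%. Camp and Ngp had chosen the members. Without them S100a8 and S100a9 took 26.6% and 32.4% of member UMIs, 3.56% and 0.968% in promyelocytes and 20.3% and 21.7% in mature neutrophils. S100a8 and S100a9 encode calprotectin, the main cytosolic protein of neutrophils. S100a8 stood at 116107 and 164973 CPM in members and S100a9 at 150255 and 159095. Of the 6 genes for S100 proteins and annexin A1, 5 were higher than in promyelocytes and S100a4 was lower, beside 7.42% and 21.9% of all genes. Only 2 were higher by UMIs per cell, beside 1.96%. Anxa1, which encodes annexin A1, stood at 3234 and 5052 CPM in members, above both promyelocytes (453 and 379) and mature neutrophils (954 and 848). S100a6 stood at 1940.0 and 1484 CPM in members and at 8518 and 9650.1 in mature neutrophils, and was called lower in members.

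Surface and chemotaxis receptors were partly present. Of 12 genes considered, 6 were higher than in promyelocytes and 0 lower, namely Fpr1, Fpr2, Cxcr2, Csf3r, Il1r2 and Ly6g. Ly6g was a marker of the rule, and without it 5 of 11 were higher, beside 7.42% of all genes higher and 21.9% lower. By UMIs per cell 4 of the 11 were higher and 3 lower, beside 1.96% and 74.1% of all genes. Cxcr2, the receptor for neutrophil chemokines, stood at 121 and 55.2 CPM in members, 3.95 and 2.93 in promyelocytes and 329 and 146 in mature neutrophils. Il1r2, the decoy receptor for interleukin 1, stood at 133 and 109 CPM, 8.96 and 0.976, and 583 and 492 in the same order. Both genes thus had an intermediate level in members. Against mature neutrophils 7 of 12 without Ly6g were lower and 0 higher, beside 6.92% and 3.23% of all genes, and by UMIs per cell 0 were higher and 2 lower, beside 24.4% and 1.4%. Csf3r, the receptor for granulocyte colony-stimulating factor, stood at 96.3 and 50.9 CPM in members and 648 and 376 in mature neutrophils. Cxcr4, which binds the marrow chemokine Cxcl12, stood at 167 and 134 CPM in members and 462 and 783 in mature neutrophils.

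NADPH oxidase subunits form the enzyme of the respiratory burst. Of 6 genes, 4 were higher than in promyelocytes and 0 lower by CPM, beside 7.42% and 21.9% of all genes, but by UMIs per cell only Cybb was higher and 0 were lower, beside 1.96% and 74.1%. Cybb, the catalytic subunit, stood at 1592 and 1051 CPM in members, 165 and 59.5 in promyelocytes and 230 and 246 in mature neutrophils. It was higher in members than in either class. Cyba, its membrane partner, stood at 2183 and 2403 CPM in members and 1002 and 754 in promyelocytes. The protease inhibitors included the stefins, whose copies are near identical and whose UMIs may be shared between genes. Against mature neutrophils 7 of 10 inhibitor genes were lower, beside 6.92% of all genes, and 4 by UMIs per cell, beside 1.4%. Serpinb1a, an inhibitor of elastase and cathepsin G, was called higher, at 571 and 780 CPM against 53.3 and 60.2. Stfa2l1 stood at 72.1 and 28.7 CPM in members and at 821 and 672 in mature neutrophils.

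Among 15 transcription factors, 3 were higher and 5 lower than in promyelocytes by CPM, beside 7.42% and 21.9% of all genes. By UMIs per cell 1 was higher and 9 lower, beside 1.96% and 74.1%. Without the 20 most abundant genes in the scaling 7 were higher and 2 lower, beside 20.7% and 8.18%, so that the balance of the list turned with the scaling. Cebpe, the factor required for specific granules, stood at 536 CPM in members of library 1 (520 to 552) and 620 in library 2 (571 to 672). In promyelocytes it stood at 269 and 177, a ratio of 1.99 and 3.51, and it was not called. Its log2 fold by UMIs per cell against promyelocytes was -0.84 and 0.22. In mature neutrophils it stood at 20.6 and 10.0 CPM, and it was called higher in members there. Cebpd, a C/EBP factor of later stages, stood at 292 and 404 CPM in members against 134 and 130 in promyelocytes. Mxd1, a Myc antagonist, stood at 351 and 302 CPM against 34.9 and 12.7, and at 1089.7 and 1074 in mature neutrophils. Of the factors of earlier progenitors, Cebpa stood at 5.17 and 5.31 CPM against 45.7 and 48.8, and Myb at 50.8 and 40.3 against 159 and 113. Irf8, which favours monocytes, stood at 14.0 and 1.06 CPM against 107 and 150. Spi1, the myeloid factor PU.1, was not called.

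Counts of proliferation genes called against promyelocytes depended on the scaling. Of 17 S phase genes, 9 were lower than in promyelocytes and 0 higher by CPM, beside 21.9% and 7.42% of all genes. By UMIs per cell 17 were lower, beside 74.1% of all genes. With the 20 most abundant member genes left out of the scaling 1 was lower, beside 8.18%. Of 19 G2/M genes, 0 were lower and 0 higher by CPM, beside the same 21.9% and 7.42%. By UMIs per cell 17 were lower, beside the same 74.1%. Without the 20 most abundant genes 2 were higher and 0 lower, beside 20.7% and 8.18%. Mki67, the nuclear antigen of dividing cells, stood at 326 and 159 CPM in members, 215 and 67.3 in promyelocytes and 143 and 15.1 in mature neutrophils. Against mature neutrophils 13 of 19 G2/M genes were higher and 0 lower, beside 3.23% and 6.92% of all genes, and all 19 were higher by UMIs per cell, beside 24.4%. Cells were also counted singly, at 20 or more UMIs of the G2/M list per 10000, a limit set after the values were seen. By that count 161 of 619 members (26.0%, 22.6 to 29.7) and 13 of 69 (18.8%, 10.4 to 30.1) passed. The shares were 65.7% and 52.0% of promyelocytes and 5.24% and 5.71% of mature neutrophils. The classes differed in depth, and whether that moved these shares was not tested.

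Genes of protein folding and ribosomal protein genes were lower in members. Of 15 genes for folding and translocation in the endoplasmic reticulum, 14 were lower than in promyelocytes, beside 21.9% of all genes. Their median log2 folds were -2.28 and -2.54. Without the 20 most abundant genes in the scaling 12 were lower, beside 8.18%. Calr, the chaperone calreticulin, stood at 94.3 and 13.8 CPM in members against 1453 and 749. Sdf2l1, a co-chaperone, stood at 11.6 and 5.31 CPM against 403 and 335. Hspa5, the main chaperone of the compartment, stood at 216 and 110 CPM against 1090.6 and 783. Of 80 cytosolic ribosomal protein genes, 79 were lower than in promyelocytes and 0 higher, beside the same 21.9%, and 60 were lower when the 20 most abundant member genes were left out of the scaling, beside 8.18%. Ribosomal proteins took a median of 3.63% of UMIs per member in library 1 and 3.45% in library 2. They took 28.5% and 31.5% in promyelocytes, 22.9% and 23.5% in B-lineage cells and 2.58% and 2.66% in mature neutrophils. Of 85 nuclear genes of oxidative phosphorylation 50 were lower by CPM, beside 21.9% of all genes, but without those 20 genes in the scaling 8 were, a share near the 8.18% of all genes. Of 14 glycolytic genes 1 was higher and 2 lower, near the 7.42% and 21.9% of all genes. By UMIs per cell 12 were lower, beside 74.1% of all genes. Without the 20 genes 2 were higher and 0 lower, beside 20.7% and 8.18%. The higher gene was Slc2a3, a glucose transporter, at 138 and 103 CPM in members against 4.71 and 2.93.

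Actin and motility genes were higher by CPM in 7 of 13 cases, beside 7.42% of all genes. By UMIs per cell 1 was higher and 4 lower, beside 1.96% and 74.1% of all genes. Lcp1, an actin-bundling protein, stood at 782 and 560 CPM in members against 189 and 101 in promyelocytes. Fgr, a Src-family kinase, stood at 87.5 and 91.3 CPM against 5.77 and 0.976. Actb was called higher by CPM, at 7239.5 and 16124 against 2945 and 6344, while its log2 fold by UMIs per cell was -0.54 and -0.24 and was not called. Among the genes with the largest folds that stood on no list were Ifitm6, an interferon-induced membrane protein, at 1415 and 1381 CPM against 9.12 and 10.7, and Plbd1, a phospholipase-like granule protein, at 497 and 395 against 4.25 and 0. At the other end, Lgals1, galectin 1, stood at 28.5 and 3.18 CPM against 601 and 1098. Cytokines and chemokines were lower than in mature neutrophils in 7 of 8 cases, and in 4 by UMIs per cell, beside 6.92% and 1.4% of all genes. The macrophage markers, given above, also stood higher by CPM in the mature class. So did 5 genes of dissociation stress, which summed to 189 and 172 CPM in members and 593 and 1204 in mature neutrophils. Of these, Fos, Jun and Egr1 were called lower in members, and 0 by UMIs per cell. The part of either list in the count of cytokines and chemokines was not tested. Ccl6 stood at 20.8 and 7.43 CPM against 1138 and 552.

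**Figure D4:**
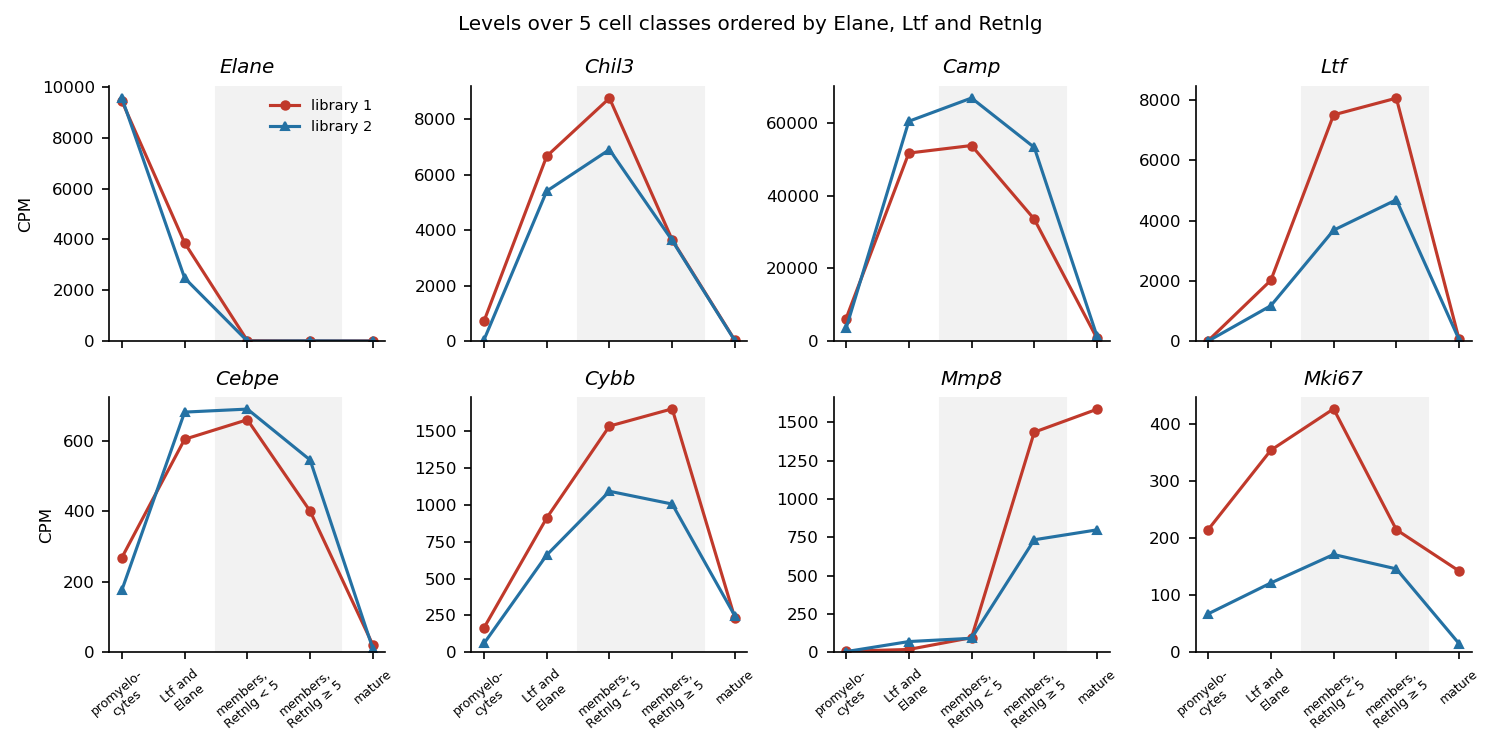
Level (CPM, each panel from 0) of 8 genes over 5 classes: promyelocytes, cells with Ltf and Elane both at 5 or more, members below and from 5 Retnlg UMIs (shaded), and mature neutrophils, for library 1 (circles) and library 2 (triangles). Elane falls at the left, Chil3 and Camp peak at members below 5 Retnlg UMIs in both libraries, Cebpe is about level there with the cells holding both genes in library 2, and Mmp8 is highest at the right.

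Members were not uniform. They were divided by Retnlg, a resistin-like protein of late neutrophils, which the rule did not use: 246, 205 and 168 members of library 1 held 0 to 4, 5 to 99 and 100 or more UMIs. In library 2 these groups held 28, 21 and 20 members. Median depth fell over the groups, from 15304 to 8504 and 7306 UMIs per cell in library 1 and from 16921 to 9424 and 7778 in library 2. Camp stood at 53780, 43303 and 17676 CPM in library 1 and at 66840, 63830 and 38384 in library 2. Chil3 stood at 8759, 5141 and 1233 CPM and at 6905, 4943 and 1776. Fcnb followed the same course, at 639, 310 and 52.6 CPM and at 541, 459 and 94.6. These 3 genes were lowest where Retnlg was highest, in both libraries. Mmp8 went the other way, at 95.1, 851 and 2383 CPM in library 1 and at 90.9, 388 and 1219 in library 2. Mmp9 stood at 212, 1040 and 2147 CPM and at 202, 635 and 1776. Cxcr2 stood at 49.5, 115 and 333 CPM and at 20.7, 67.2 and 126. These 3 genes were highest where Retnlg was highest, in both libraries. The stromal list also stood higher in members with at least 5 Retnlg UMIs than in the rest. It summed to 1158 against 193 CPM in library 1 and to 61.1 against 37.2 in library 2. Its part in these levels was not tested. Ltf had no single direction, at 7514, 9425 and 5871 CPM in library 1 and 3684, 4756 and 4608 in library 2. Cebpe stood at 660, 546 and 164 CPM in library 1 and at 690, 691 and 341 in library 2, so that the groups of library 2 with the least Retnlg lay within counting error of each other. The share of cells past the G2/M limit was 50.4% (44.0 to 56.8) of members below 5 Retnlg UMIs and 9.92% (7.08 to 13.4) of the rest in library 1. In library 2 it was 28.6% (13.2 to 48.7) and 12.2% (4.08 to 26.2), intervals that overlap.

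**Figure D5:**
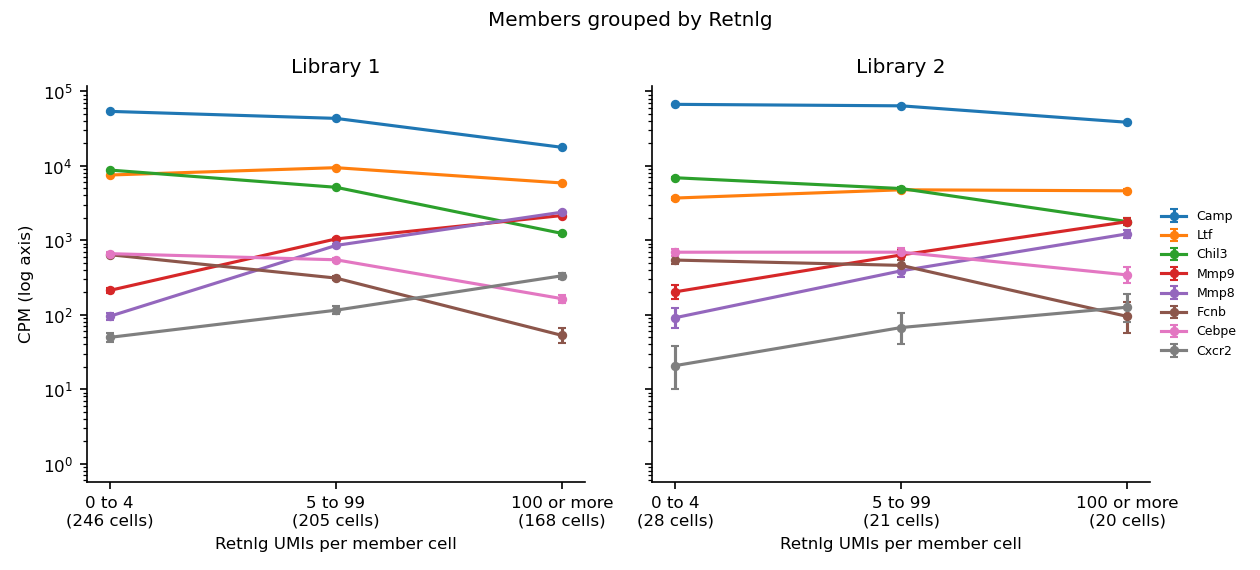
Level (CPM, log axis) of 8 genes in members grouped by Retnlg UMIs per cell, with Poisson 95% intervals for counting error, each library in its own panel. Camp, Chil3 and Fcnb are lowest, and Mmp8, Mmp9 and Cxcr2 highest, in the members with 100 or more Retnlg UMIs in both libraries.

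Against the other cells, which include B-lineage cells and mature neutrophils, 7.32% of 7268 genes were higher in members and 24.7% lower. All 9 specific granule genes that had not chosen the members and all 6 NADPH oxidase genes were higher. Bglap, osteocalcin, lay furthest below when genes were ranked by the smaller of their folds in the libraries, at 6.28 and 0 CPM in members against 673 and 1449. In library 2 alone Col1a1, Col2a1, Sparc and Col1a2 lay further below. Among the next by that ranking were Col2a1, the main collagen of cartilage, at 38.8 and 3.18 against 788 and 5938, and Acta1, skeletal muscle actin, at 4.92 and 5.31 against 184 and 552. Vpreb3, of B cell precursors, stood at 41.5 and 2.12 against 599 and 768.

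Although the cells had been sorted as CD45 negative, 590 of 619 and 60 of 69 members held at least 1 UMI of Ptprc, the gene of CD45. Its level was 348 and 202 CPM in members, 60.0 and 39.0 in promyelocytes, 884 and 442 in mature neutrophils and 122 and 94.2 in B-lineage cells. Pecam1, the gene of CD31, stood at 2.46 and 1.06 CPM. In members, the lists of markers of other cells stood higher in library 1 than in library 2. This did not hold for the stromal list in other classes. That list summed to 366 and 3050 CPM in B-lineage cells, 61.8 and 304 in promyelocytes and 3194 and 4291 in mature neutrophils. The erythroid list of 7 genes summed to 15398 CPM in members of library 1 and 139 in library 2, led by Hbb-bs, a beta globin, at 8490 and 81.7, and to 21502 and 6678 in B-lineage cells. In library 1 the summed Hbb-bs level was above that of Ltf, but a minority of members carried most of it: every member held UMIs of the erythroid list, at a median of 12 per member against a mean of 202, and 53 of 619 held at least 50. The alpha-globin copies cannot be told apart with certainty. The stromal list of 6 genes summed to 655 and 48.8 CPM, led by Col1a1 at 290 and 17.0, and the B cell list of 6 to 165 and 15.9, led by Ebf1 in library 1 at 52.4 and Cd79b in library 2 at 5.31. Endothelial, eosinophil, basophil and megakaryocyte lists were each at 0 UMIs in members of library 2. In all, 95 of 619 and 3 of 69 members held at least 5 UMIs of the B cell, stromal, macrophage or T and NK list or at least 50 of the erythroid list. Doublets had not been removed, and the part of these cells in the results above was not tested beyond leaving them out. Without them the genes called against promyelocytes numbered 2334 in place of 1900. Against other cells they numbered 2653 in place of 2329, and against mature neutrophils 703 in place of 603.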

How the data were processed

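Single-cell RNA-seq of 2 mouse periosteal libraries (3' droplet kit) was analysed. Per the labels, the authors made the deposited UMI counts with Cell Ranger 6.1.2 on mm10; the values are whole-number counts per gene and barcode, not normalized. Features numbered 32288, of which 32285 were mouse genes and the rest reporter sequences. Barcodes with at least 500 genes, at least 500 UMIs and at most 10% mitochondrial UMIs were kept. Doublets were not removed.

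Counts were summed per class and library (Python 3.11.15, numpy 2.4.6, scipy 1.17.1, pandas 2.3.3) and scaled to CPM. Genes with a mean of at least 10 CPM over the 4 sums were considered. Intervals are exact Poisson or Clopper-Pearson at 95% and cover counting error only; a count of 0 was given a floor of 3 UMIs. Each library was treated apart and no test was run, since measured genes cut the classes and there was 1 condition. The fold rule was tested on simulated data, in which genes near the 2-fold line were missed in part, most often against mature neutrophils, whose sum in library 2 is small. The simulated sums held counting error only, with no spread between cells or libraries. The criterion for passing was set after earlier ones had failed against mature neutrophils.

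Genes named were those of the gene lists plus the 15 highest and 15 lowest in each comparison, leaving out the genes of the gates. Members and lists were chosen with earlier results of these data known. Alternatives covered the gate, the filters, the CPM added, the fold, equal weight per cell, thinning to 1000 UMIs per cell and each library alone. UMIs per cell and scaling without the 20 most abundant member genes were added after seeing the data. Promoter windows came from RefSeq and positions from the GENCODE annotation of the same build.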

Additional observations from a re-analysis of the deposited data

Results flagged for a closer look

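Reporter sequences lie outside the genes compared, and both libraries are labelled wild type. In immature neutrophils tdTomato had 118 UMIs in library 1 (14.5 CPM, in 100 of 619 cells) and 41 in library 2 (43.5 CPM, in 30 of 69 cells), above the limit that a count of 0 allows. The level was 10.0 and 16.6 CPM in promyelocytes, 28.0 and 70.3 in mature neutrophils, 21.2 and 45.0 in B-lineage cells and 16.8 and 159 in other cells. The level in members lay between those of promyelocytes and mature neutrophils in both libraries, with Poisson intervals that overlapped those of promyelocytes in library 1 and of mature neutrophils in library 2. In library 2 the share of cells with a UMI was 43.5% of members, against 32.0% of promyelocytes, 28.9% of other cells, 20.5% of B-lineage cells and 7 of 35 mature neutrophils; in library 1 it was 16.2% of members, 34.3% of promyelocytes, 15.9% of other cells, 14.8% of B-lineage cells and 32 of 267 mature neutrophils. The classes differed in depth. EGFP had 0 and 1 UMIs in members and 6836 in the other cells of library 2. The source of these UMIs was not tested.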

How the results depend on the processing

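The class held 688 cells, and 362 when all 4 other markers were required, 617 with Elane at 0, 690 with at least 200 genes, 676 with at most 5% mitochondrial UMIs and 590 without members holding markers of other lineages. Genes called against promyelocytes numbered 1900, and 994 at a mean of at least 50 CPM, 318 at 4-fold and 4929 by UMIs per cell; with 1 library left out the count was 2140 to 2812. Against other cells it was 2329, then 1085 at 50 CPM, 440 at 4-fold and 2834 to 3584 with 1 library left out. Against mature neutrophils it was 603, then 945 with 1 CPM added, 368 at 50 CPM, 101 at 4-fold, 1534 by UMIs per cell and 833 to 1944 with 1 library left out. In each comparison library 2 alone gave the larger count. The share of calls that were higher moved with the scaling: against promyelocytes from 25.3% to 71.7% without the 20 most abundant genes and 2.58% by UMIs per cell, against other cells from 22.8% to 58.7% without those genes, and against mature neutrophils from 31.8% to 59.3% and 94.6%. Scaling by UMIs per cell and without those genes was chosen after seeing the data. Of the named genes called, Actb (-0.54) and Arpc5 (-0.60) reversed against promyelocytes by UMIs per cell, as log2 folds in library 1; each cause was not tested. Over all alternatives, 6146 values of named genes were still called the same way, 476 were no longer called and these 2 reversed. Of the 476, 145 came from the limit of 4-fold and 76 from the mean of at least 50 CPM, which leaves the folds unchanged. Small sums limit library 2, above all for mature neutrophils and promyelocytes. No paired analysis was possible because no result comes from a test; each fold was already taken between classes of the same library.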
